A study of Mus musculus with 12 samples.

Results

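The genes described here are 6 enzymes that take uridine and the other pyrimidines apart: Upp1 and Upp2, Cda, Dpyd, Dpys and Upb1. They were found by symbol among the 25033 entries of the Ribo-seq table, and each symbol had 1 entry, so that 6 of 6 were measured. The set was chosen by the Ribo-seq values of Upp2, which are far higher with lycopene in these same libraries, so the difference in Upp2 is given as a description without a test. For the same reason no p-value is given for any of the other 5 enzymes.

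The livers came from male C57BL/6 mice aged 16 weeks, which had eaten their diets for 8 weeks. The HFD group (n = 3) ate high-fat feed alone, and the LYC group (n = 3) ate high-fat feed that contained lycopene, a red carotenoid of tomatoes. Both groups were therefore on the high-fat diet and no allele or transgene separates them. For LYC mice the treatment given in the labels is the high-fat diet alone, and the lycopene is known from the series design and the study's methods. Ribo-seq counts the RNA fragments that ribosomes shield from digestion, and 3 Ribo-seq libraries a group were compared, each taken to be 1 mouse on the strength of its title. The study calls the libraries of a group biological replicates. The labels also say that material of the groups was pooled before the libraries were made, and whether the spread between libraries is that between mice cannot be told from the files.

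Uridine circulates in the blood, and the liver is a main site where it is both released and removed. Uridine phosphorylase splits it into uracil and ribose-1-phosphate, and cytidine deaminase feeds this step by turning cytidine into uridine. Uracil is then reduced, its ring is opened, and beta-alanine is set free, in 3 steps catalysed in turn by the products of Dpyd, Dpys and Upb1.

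The 2 uridine phosphorylases are encoded by genes on different chromosomes. Upp1 lies at chr11:9118103-9136170 on the plus strand of GRCm38, and Upp2 at chr2:58567298-58792971 on the plus strand. Their coding sequences, of 936 and 1017 bases, were identical at 610 of 931 aligned bases (65.5%), and the longest run they shared was 10 bases. That run is shown in capitals below with its flanks, because it is the longest stretch that the coding sequences have in common. It lies in a coding exon of both, at chr11:9131711-9131752 in Upp1 and at chr2:58771502-58771543 in Upp2.
Upp1: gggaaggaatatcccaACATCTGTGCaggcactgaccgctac
Upp2: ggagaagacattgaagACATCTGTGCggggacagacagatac
A window of 28 bases, about the length of a ribosome footprint, was slid along the coding sequence of each of the 6 enzymes. None of these windows occurred in a transcript of another gene in GENCODE M21, so that 100% were unique for every enzyme. A read of that length in the coding sequence, without mismatches, can thus be given to Upp2 or Upp1 alone.

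RefSeq lists 2 start sites for Upp2. The upstream one is at the 5′ end of the gene and the other lies inside it, and the 250 bases before the internal start, chr2:58754934-58755183 on the plus strand of GRCm38.p6, are shown because they were the only ones of 8 promoters of the set to hold any of 5 motifs searched. Capitals mark 2 copies of AGGTCA, the half-site of many nuclear receptors, and 1 TATAAA.
Upp2 internal promoter: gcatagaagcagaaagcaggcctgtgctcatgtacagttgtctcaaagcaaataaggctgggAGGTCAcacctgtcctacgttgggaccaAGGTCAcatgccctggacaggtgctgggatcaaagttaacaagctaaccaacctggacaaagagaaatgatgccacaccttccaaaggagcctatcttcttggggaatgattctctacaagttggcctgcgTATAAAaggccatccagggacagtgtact
Over 32851 promoters of the same length, AGGTCA occurred in 14.0% and TATAAA in 12.4%, on either strand. CACGTG (6.02% of promoters), TTATGTAA (0.819%) and TTACGTAA (0.113%), the letters of the E-box and of D-box forms, were in none of the 8 promoters. The table holds 3 promoters of Upp1, 2 of Upp2 and 1 each of Dpyd, Upb1 and Cda. A match is a description of letters and not a site of binding, and the files do not say which start site was in use.

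The depth of the libraries differed between the diets. The recovered totals were 834410 to 4405541 reads in HFD and 311050 to 412116 reads in LYC, so that on a gene of 1 kb a single read was worth 0.227 to 1.20 RPKM in HFD and 2.43 to 3.21 RPKM in LYC. RPKM divides the reads of a gene by its length and by the total of the library. Genes of small non-coding RNA took 2.76% to 4.13% of reads in HFD and 9.27% to 13.1% in LYC. Both measures separate the diets without overlap, and their part in the differences below was not tested. A filter on low reads left 5775 genes, of which 404 were called higher in LYC (7.00%) and 364 lower (6.30%). A gene was called when limma gave it a log2 fold change beyond 1 in either direction with an unadjusted p below 0.01. With libraries scaled by total reads, 235 genes were called higher and 651 lower.

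Upp2, the uridine phosphorylase found mainly in liver, had the largest change of the 4 enzymes that could be fitted. Its RPKM was 16.7, 22.1 and 16.9 in HFD1, HFD2 and HFD3, and 222, 336 and 198 in LYC1, LYC2 and LYC3. Every LYC library lay far above every HFD library, an order held by 9.87% of the genes tested on the deposited scale. The mean rose from 18.5 ± 3.06 under HFD to 252 ± 73.4 under LYC (SD, n = 3 libraries each), a ratio of 13.6. Behind these values stand 100, 214 and 31 reads for HFD and 193, 230 and 180 reads for LYC, so the shallow LYC libraries held about as many reads of Upp2 as the deepest HFD library. Among all genes above 0 in a library, Upp2 stood at percentile 79.3 to 83.8 in HFD and 96.2 to 97.2 in LYC.

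The log2 fold change of Upp2, on log2(RPKM / TMM factor + 1), was 3.96 (SE 0.24). It ranked 33 of the 5775 genes tested and 6 of the 5563 protein-coding ones. Leaving out each library in turn moved it between 3.80 and 4.10. In whole liver, fewer cells of a type and less RNA per cell cannot be told apart, here and for every gene below.

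**Figure D1:**
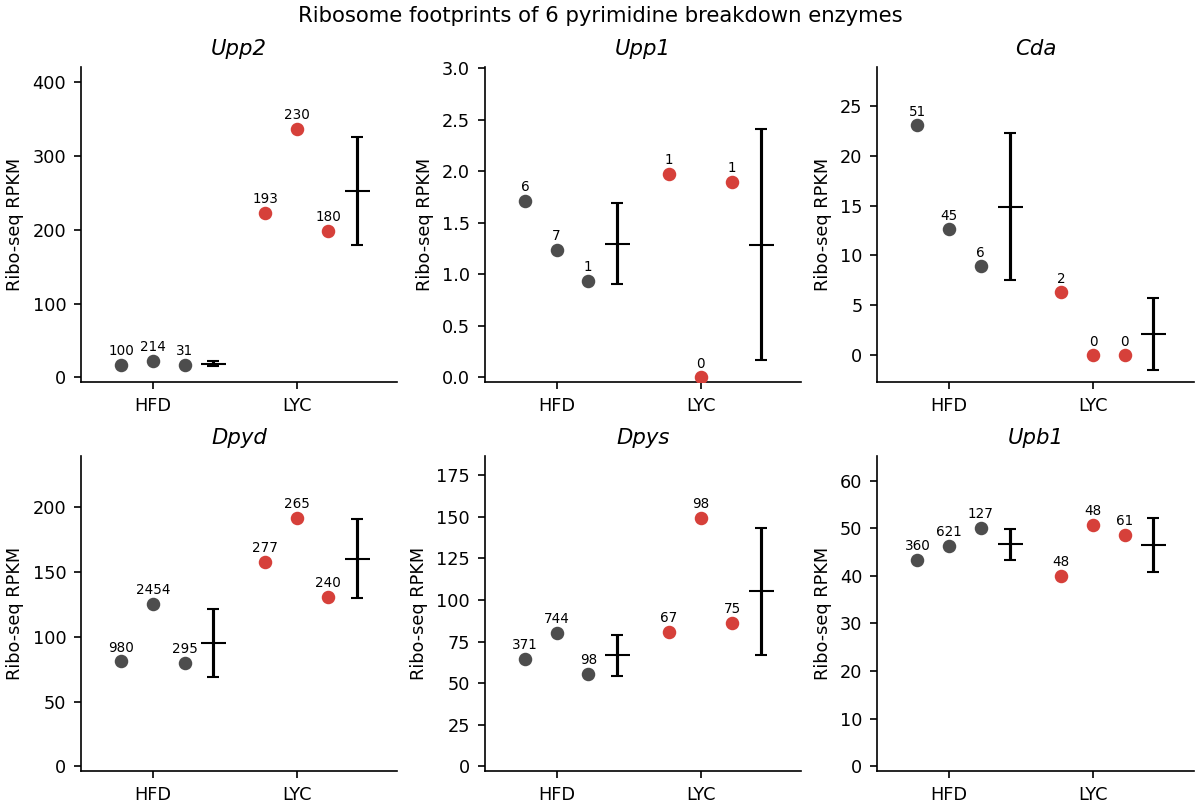
Ribo-seq RPKM (linear vertical axes, 1 panel an enzyme) in the 3 HFD and 3 LYC libraries; dots are libraries in the order 1 to 3 with their recovered reads above them, and the bar beside them is the mean ± SD. Upp2 in LYC sits between 198 and 336 RPKM, above the 16.7 to 22.1 RPKM of HFD, while the ranges of Upb1 overlap and Cda rests on 2 reads in LYC.

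Upp1, the uridine phosphorylase of most other tissues, was close to the limit of detection. The HFD libraries had an RPKM of 1.72, 1.24 and 0.934 and the LYC libraries 1.98, 0 and 1.89, so that the groups overlapped. This comes from 14 reads in HFD and 2 in LYC over all 3 libraries. Per read sequenced, HFD over LYC gave a ratio of 0.982 with an exact 95% interval of 0.226 to 8.90, which covers counting error only, as do all such intervals here. A change of several fold in Upp1 was therefore not detectable at this depth, and Upp1 did not pass the filter on low reads.

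Cda, at chr4:138338424-138367992 on the minus strand, encodes the deaminase that makes uridine from cytidine. The HFD libraries held 23.1, 12.6 and 8.89 RPKM and the LYC libraries 6.27, 0 and 0. The LYC libraries all lay below the HFD libraries, in the direction opposite to Upp2. Among the genes tested, which do not include Cda, 27.5% had all LYC libraries below all HFD libraries on the deposited scale. No share is given for genes of so few reads, so nothing is read from that order. Its coding sequence is short, at 441 bases, and the length behind its RPKM was 809 bases. On that length 1 read was worth 3.00 to 3.97 RPKM in LYC. The floor that a count of 0 allows is 3 reads, which were worth up to 11.9 RPKM in a LYC library. The lowest HFD value of 8.89 RPKM is under the floor of every LYC library. Pooled over libraries there were 102 reads in HFD and 2 in LYC, which gave a ratio of 7.16 for HFD over LYC, with an exact 95% interval of 1.93 to 59.9. Cda did not pass the filter and was not called.

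Dpyd encodes the reductase that starts uracil breakdown and limits its rate, and that also clears the drug fluorouracil. It lies at chr3:118562129-119432924 on the plus strand. In the HFD libraries the RPKM was 80.9, 125 and 79.6, and in the LYC libraries 158, 192 and 131. The groups did not overlap, but HFD2 at 125 and LYC3 at 131 were close. All LYC libraries lay above all HFD libraries in 9.87% of the genes tested on the deposited scale. The means of 95.3 ± 26.1 for HFD and 160 ± 30.4 for LYC (SD, n = 3 each) had a ratio of 1.68, and the log2 fold change was 1.05 (SE 0.24). This was just past the limit of 1, and without HFD1, HFD3, LYC1 or LYC2 the change was 0.96 to 0.98 and no longer a call. With libraries scaled by total reads it was 0.76.

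Dpys encodes the hydrolase that opens the ring of dihydrouracil, and lies at chr15:39768487-39857470 on the minus strand. HFD libraries were at 64.5, 80.0 and 55.7 RPKM, and LYC libraries at 80.5, 149 and 86.3. The lowest LYC library and the highest HFD library differed by less than 1 RPKM, and LYC2 stood above the others. The means were 66.7 ± 12.3 for HFD and 105 ± 38.2 for LYC (SD, n = 3 each), and the log2 fold change was 0.90 (SE 0.25), under the limit of 1. It was past the limit only when LYC3 was left out, at 1.01.

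Upb1 encodes the last enzyme, which releases beta-alanine from uracil and beta-aminoisobutyrate from thymine. It lies at chr10:75401115-75441679 on the plus strand. The RPKM was 43.4, 46.3 and 50.0 under HFD, and 40.0, 50.7 and 48.7 under LYC. On this scale the groups overlapped, and the means of 46.6 ± 3.32 and 46.5 ± 5.69 (SD, n = 3 each) had a ratio of 0.997. Divided by the TMM factors the values were 36.7 to 48.5 in HFD and 49.9 to 53.2 in LYC, which do not overlap. No share of all genes is given for that order on the TMM scale, so nothing is read from it. The log2 fold change was 0.28 (SE 0.23) after TMM scaling, and -0.01 with total reads, so its direction depends on the scaling. The shift that total reads bring to the median of all genes tested was -0.26 on the log2 scale, from -0.10 to -0.36.

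Of the 6 enzymes 4 passed the filter. As a description, 2 of them lay past the limits of a call on the higher side, Dpyd and Upp2, the gene that chose the set, and 0 on the lower side, beside 7.00% and 6.30% of all genes. The contrast is the one that chose the set, and the filter removed Cda, the enzyme that lay lower in LYC, for its few reads, so nothing is read from that count. Upp2 lies well above the cloud of genes of like level, and Upb1 lies within it, in the plot of change against level.

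**Figure D2:**
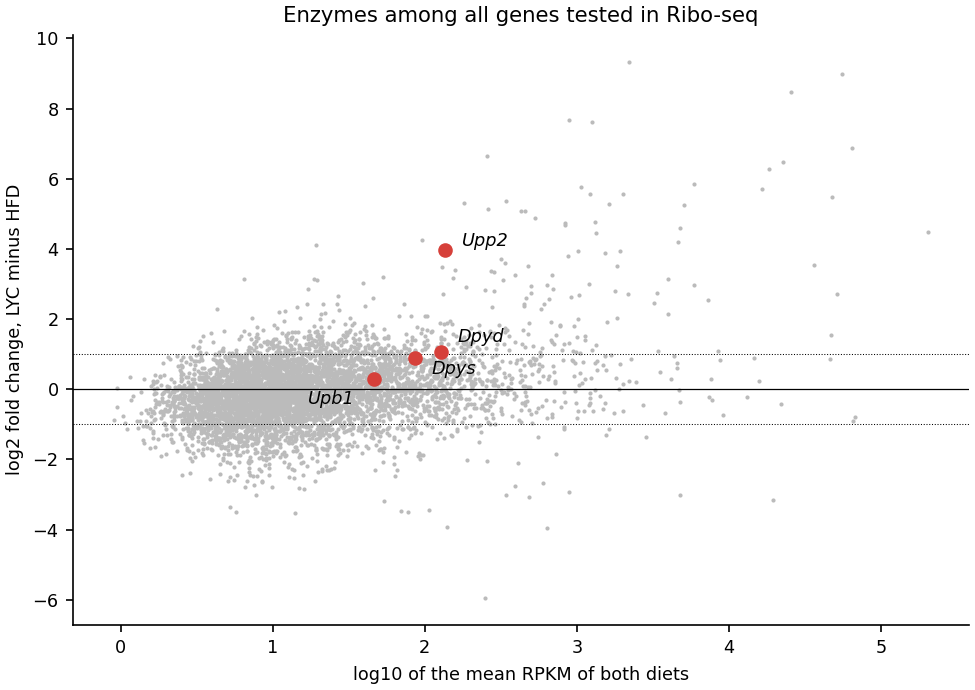
Log2 fold change, LYC minus HFD (vertical), against the log10 of the mean RPKM of both diets (horizontal) for the 5775 genes tested; grey dots are genes, red dots the 4 enzymes that passed the filter, dotted lines a log2 fold change of 1 and -1. Upp2 is at 3.96, Dpyd at 1.05, Dpys at 0.90 and Upb1 at 0.28.

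Within a library, ratios between the enzymes need no scaling of depth. Upp2 was 0.384, 0.476 and 0.337 times the RPKM of Upb1 in the HFD libraries, and 5.55, 6.62 and 4.08 times in the LYC libraries. Relative to Dpyd, Upp2 was 0.206, 0.176 and 0.212 under HFD and 1.41, 1.75 and 1.51 under LYC. The 2 phosphorylase ratios thus turned from below 1 in every HFD library to above 1 in every LYC library. Among the enzymes that follow, the ratio of Dpyd to Upb1 was 1.86, 2.71 and 1.59 in HFD and 3.95, 3.78 and 2.70 in LYC, where HFD2 and LYC3 met. The ratio of Dpys to Dpyd averaged 0.711 ± 0.080 for HFD and 0.648 ± 0.135 for LYC (SD, n = 3 each), less apart than the spread between libraries.

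The order of the levels differed accordingly. In HFD it ran, in mean RPKM, from Dpyd and Dpys, whose ranges overlapped, to Upb1, then to Upp2 and Cda, whose ranges also overlapped, and last to Upp1. In LYC Upp2 came first in all 3 libraries, above the overlapping Dpyd and Dpys, and Upb1 followed, with Cda and Upp1 last and not apart. Of the summed RPKM of the 6 enzymes, Upp2 made up 7.62% ± 0.366 under HFD and 44.1% ± 1.85 under LYC (SD, n = 3 each). The summed RPKM was 243 ± 39.5 in HFD and 568 ± 140 in LYC. Without Upp2 the sum was 225 ± 36.6 and 316 ± 66.8.

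**Figure D3:**
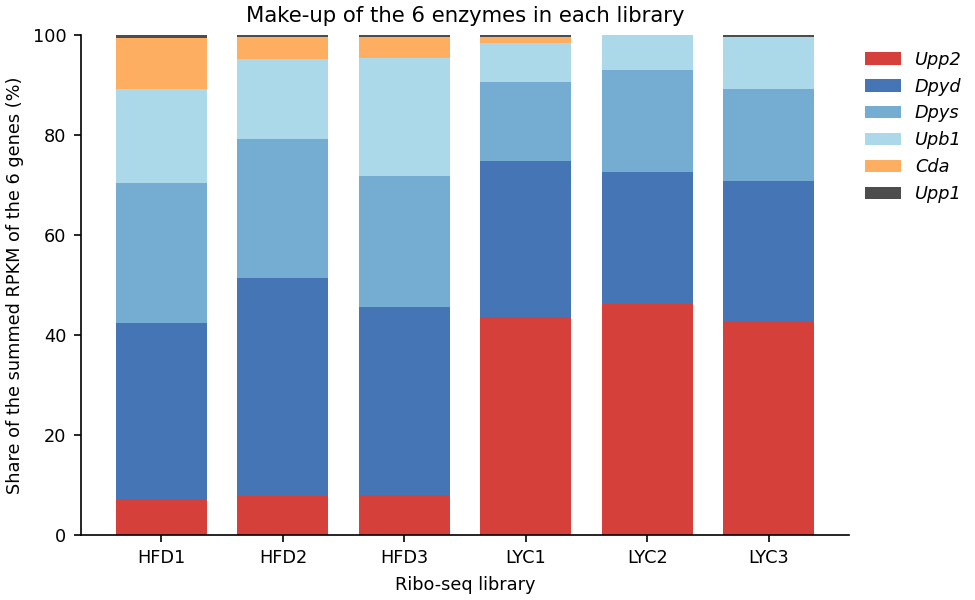
Share of each enzyme in the summed RPKM of the 6 (vertical, percent) in each Ribo-seq library (horizontal), as stacked bars. The red segment, Upp2, takes 7.23% to 7.96% of the bar in the HFD libraries and 42.5% to 46.1% in the LYC libraries.

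A second table, whose samples are labelled RNA-seq, was read for the same enzymes. Before its values are given, it has to be said that its columns follow the Ribo-seq libraries one by one. The genes compared were those whose Ribo-seq reads came out whole with the gene length of the second table, without the gene Lars2. For each column, 80.0% to 84.3% of these genes with at least 10 reads had a count close to 1 Ribo-seq library of the same diet. Close means within 10% of its reads, and at most 14.4% were so with any other library. In LYC the matched columns and libraries had the same replicate number, and in HFD they did not, as columns 1, 2 and 3 followed HFD2, HFD3 and HFD1. The deviations from the diet mean correlated across genes at r = 0.965 to 0.976 within these matches and at no more than 0.0785 otherwise; genes are not independent replicates. For the 6 enzymes, 19 of 36 pairs of counts were the same number, and where there were at least 10 reads no pair differed by more than 6.45%. The table was therefore taken as a second quantification of the same libraries, each counted once, and translational efficiency was not computed. Whether the shared reads are footprints or mRNA cannot be told from this match. The name Ribo-seq is used here, above and below, because the labels give it.

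In that table the counts of Upp2 were 220, 33 and 102 in the HFD columns and 194, 230 and 180 in the LYC columns. The LYC columns were high in spite of smaller totals, as in the Ribo-seq table. The deposited RPKM of Upp2 averaged 18.0 ± 2.72 over HFD and 140 ± 31.3 over LYC (SD, n = 3 each), a smaller difference than in the Ribo-seq table. In that table Lars2, a mitochondrial leucyl-tRNA synthetase gene, held 6.68% to 15.0% of all counts under HFD and 35.9% to 40.3% under LYC. RPKM divides by the total, which was 582184 to 687242 counts in the LYC columns and 311050 to 412116 reads in the LYC Ribo-seq libraries. In HFD the totals were 805557 to 4730705 counts and 834410 to 4405541 reads. On total counts the log2 fold change of Upp2 was 2.95 with Lars2 in the totals and 3.48 without it. What lies behind the larger LYC totals was not tested. In edgeR with TMM factors the log2 fold change was 4.05 for Upp2, 1.07 for Dpyd, 0.92 for Dpys and 0.29 for Upb1. Of the 4 enzymes that passed the filter, Upp2 and Dpyd lay past the limits on the higher side and 0 on the lower side, beside 9.31% called higher and 7.33% called lower of the 5921 genes tested. These are the libraries that chose the set, so nothing is read from that count either. Dpyd fell short of the limit, at 0.99, without HFD column 2, HFD column 3 or LYC column 1, and at 0.88 without a filter on low genes. Dpys was past the limit without LYC column 1, at 1.02, or LYC column 3, at 1.05. Scaled by total counts, the changes of Dpyd, Dpys and Upb1 became -0.04, -0.16 and -0.79, so their direction in that table depends on the scaling.

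**Figure D4:**
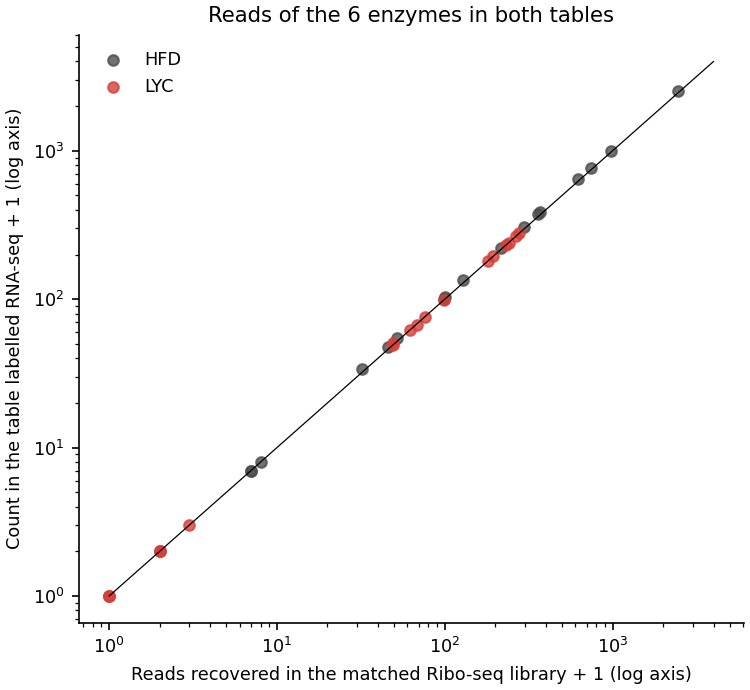
Count of each enzyme in the table labelled RNA-seq (vertical) against the reads recovered from the matched Ribo-seq library (horizontal), both plus 1 on log axes, for 6 enzymes in 6 libraries; the line marks equal numbers. The 36 points lie on or close to the line, and 19 are identical.

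The genes around these enzymes were read from lists of the nucleotide pathways. Of 50 listed genes 24 passed the filter, of which 2 were called higher and 2 lower, with a median log2 fold change of 0.15. Called genes among all those tested were 13.3%. For lists of genes other than the 6 enzymes the adjusted p is that of limma with Benjamini-Hochberg adjustment over all 5775 genes.

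Upstream of uridine phosphorylase stand the transporters that carry uridine across the membrane. Of 7 such genes 1 passed the filter, Slc29a1, the equilibrative nucleoside transporter of the cell surface. It fell, from an RPKM of 69.8, 94.8 and 96.1 in the HFD libraries to 17.5, 30.0 and 40.6 in the LYC libraries. All LYC libraries lay below all HFD libraries, an order held by 27.5% of the genes tested on the deposited scale. The log2 fold change of Slc29a1 was -1.31 (SE 0.31, adjusted p = 0.0295 in limma), and its call was lost without HFD3. Among 6 nucleotidases, which release nucleosides from nucleotides, 2 passed the filter and 0 were called, and Nt5c2 was nearest at 0.58.

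Tymp, which splits thymidine as Upp2 splits uridine, fell too. Its RPKM was 10.5, 13.9 and 11.8 under HFD and 1.09, 5.51 and 3.12 under LYC, with a log2 fold change of -1.54 (SE 0.41, adjusted p = 0.0444). It rests on 233 reads in HFD and 8 in LYC, and its call was lost without any 1 of HFD1, HFD2, HFD3 or LYC3. With a pseudocount of 5 the change was -0.94, under the limit. The other 4 tested genes of its list, on purine nucleoside phosphorylases and the use of ribose phosphate, were not called.

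Ugp2, which makes UDP-glucose out of UTP, rose. HFD libraries held 117, 167 and 95.6 RPKM and LYC libraries 248, 234 and 252, with a log2 fold change of 1.28 (SE 0.24, adjusted p = 0.0138). The LYC libraries lay close together and all above the HFD libraries, an order held by 9.87% of the genes tested on the deposited scale. The other 3 of 4 tested UDP-sugar genes were not called. With total reads as the scaling the change of Ugp2 was 0.98, under the limit of 1.

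The routes that make or save pyrimidines, and those that use up beta-alanine, held no call. De novo synthesis had 2 of 5 genes past the filter, with Umps at -0.28, and salvage had 2 of 10, with the nucleotide kinase gene Cmpk1 at 0.68 (adjusted p = 0.122). Tk1 and Tk2, the thymidine kinase genes of the cytosol and of mitochondria, did not pass the filter, and their groups did not overlap, in opposite directions. On the deposited scale 9.87% of the genes tested had all LYC libraries above all HFD libraries and 27.5% all below, so nothing is read from that order. The RPKM of Tk1 was 6.16, 2.65 and 1.75 in HFD and 27.8, 18.8 and 8.86 in LYC, from 41 and 28 reads. The RPKM of Tk2 was 8.67, 8.00 and 4.12 in HFD and 1.09, 1.38 and 2.09 in LYC, from 145 and 4 reads. All 3 genes that break down beta-alanine and beta-aminoisobutyrate passed the filter, with Aldh6a1 at 0.32 (adjusted p = 0.343). In the parallel breakdown of purines, 5 of 6 genes passed and 1 was called higher, beside 7.00% of all genes tested. It was Uox, the urate oxidase that mice keep. Its levels were 445, 674 and 464 RPKM under HFD and 893, 1730.4 and 702 under LYC, with a log2 fold change of 1.28 (SE 0.32, adjusted p = 0.0359). LYC2 was highest, and without it the change was 0.97 and no longer a call. Without HFD1, HFD3 or LYC1 the call of Uox was lost as well, and with total reads it was at 0.99.

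**Figure D5:**
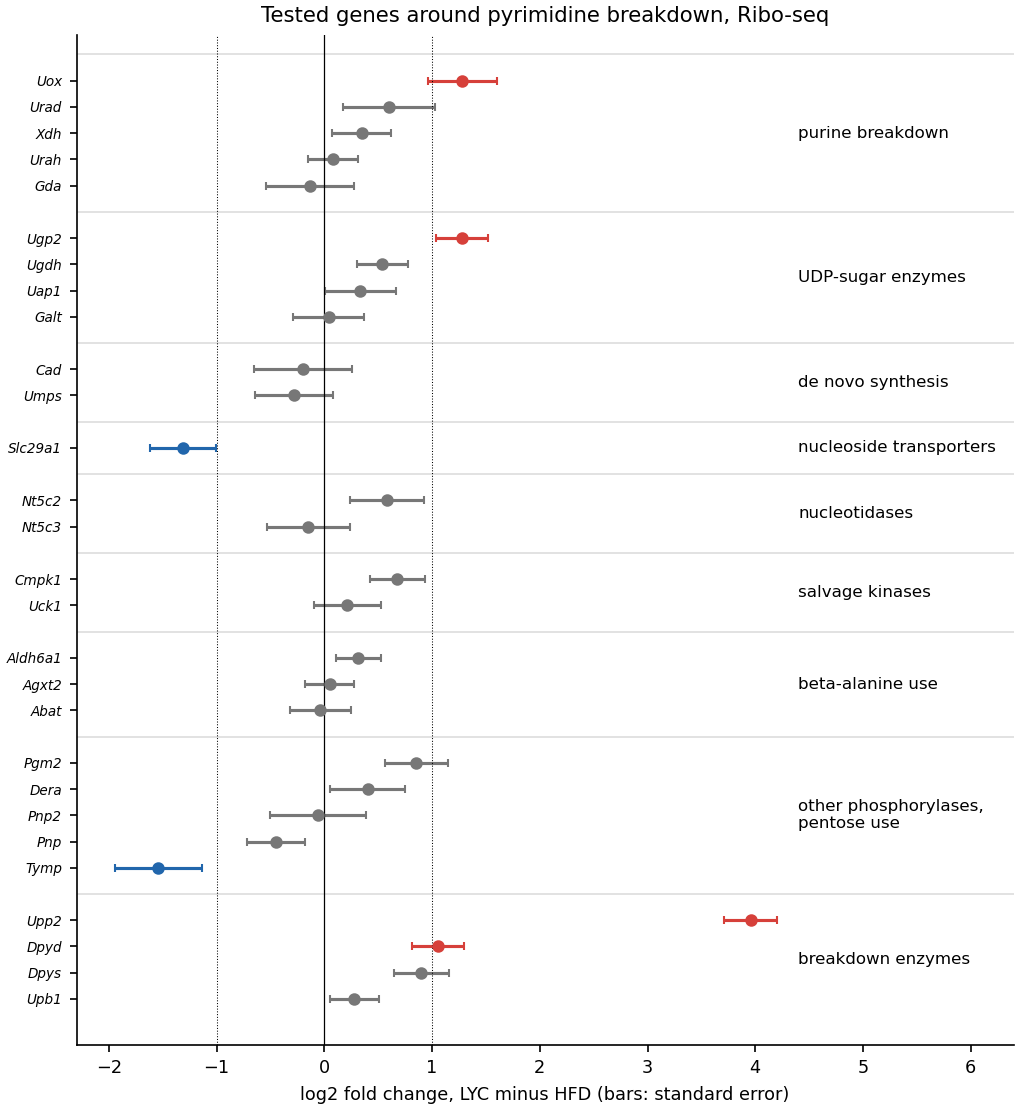
Log2 fold change, LYC minus HFD, with its standard error (horizontal) for the tested genes of each pathway list (vertical); red is called higher, blue called lower, grey not called, and dotted lines are at 1 and -1. Upp2 at 3.96 lies beyond all others, Tymp at -1.54 and Slc29a1 at -1.31 lie lowest, and the beta-alanine genes lie near 0.

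The 5 genes whose profile over the 6 Ribo-seq libraries was nearest to that of Upp2 were Mir6516, Scarna3b, Snora20, Car9 and Scarna3a, by the root mean square difference of centred log2 values (0.25 to 0.47). Of these Car9, a carbonic anhydrase gene, is the only protein-coding one, and the others are genes of small non-coding RNA. The RPKM of Car9 was 81.3, 59.8 and 81.4 in HFD and 1246, 2046 and 1472 in LYC. With a pseudocount of 5 in place of 1, 2 of the 5 stayed among the nearest.

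Some genes of the circadian clock passed the limits of a call. Of 16 listed, 11 passed the filter, 3 were called higher and 1 lower, beside 7.00% and 6.30% of all genes tested. Dbp, a clock output factor, rose from 4.47 ± 3.14 to 34.9 ± 15.5 RPKM (SD, n = 3 each; log2 fold change 3.10, adjusted p = 0.00742 in limma). Clock fell, with a log2 fold change of -1.25 (adjusted p = 0.0382), while Tef at 1.42 (adjusted p = 0.0524) and Per2 at 1.17 (adjusted p = 0.0557) met the call but not an adjusted p of 0.05. The call of Clock was lost without HFD1, HFD2 or HFD3, that of Tef without HFD1, HFD3, LYC2 or LYC3, and that of Per2 without LYC1 or LYC2, while Dbp was called whichever library was left out. Per2 did not pass the filter without HFD1, HFD2 or HFD3. With a pseudocount of 5 Clock was at -0.66 and Per2 at 0.59, with the length trend removed Clock was at -0.91, and with total reads Tef was at 1.15 and Per2 at 0.96, none of them a call. Without a filter on low genes the calls of Clock and Per2 were lost as well, as their unadjusted p in limma was then above 0.01. Arntl had 114 reads in HFD and 0 in LYC and did not pass the filter. The part of the clock genes in the difference of Upp2 was not tested.

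Markers of liver cell types were summed in each library. The 7 hepatocyte markers, such as Alb, were high in every library of these livers, with a sum of 40550.5 to 44337 RPKM in HFD and 27428 to 36985 in LYC. Divided by the TMM factors, the sums were 35083 to 39347 in HFD and 27318 to 40438 in LYC, which overlap. Of these 7 genes 1 was called higher, the urea cycle gene Cps1, and 0 lower, beside 7.00% and 6.30% of all genes tested, and their median log2 fold change was -0.03. The 5 cholangiocyte markers summed to 15.4 to 25.0 RPKM in HFD and 2.89 to 9.25 in LYC, where Krt19, Krt7 and Epcam were at 0. The 6 neutrophil markers summed to 2.97 to 4.19 RPKM in HFD and 18.7 to 26.7 in LYC. Retnlg and Mpo were at 0 in all libraries and Csf3r at 0 in LYC, and only 3 of the 6 had a higher mean in LYC. The cholangiocyte sums rest on 341 reads in HFD and 15 in LYC, and the neutrophil sums on 36 and 14 reads, so that few reads carry the LYC values. None of the cholangiocyte or neutrophil genes passed the filter. The sums of the cholangiocyte and neutrophil lists did not overlap between the diets, as deposited or with TMM factors, and their part in the results was not tested. On the deposited scale 27.5% of the genes tested had all LYC libraries below all HFD libraries and 9.87% all above. No such share is given for sums, for genes of so few reads or on the TMM scale, so nothing is read from that order. Sums of Kupffer, endothelial, stellate and erythroid markers overlapped between the diets on both scales. In these lists 6 Kupffer, 5 endothelial, 4 stellate and 3 erythroid genes passed the filter. Of these 1 was called higher and 0 lower, beside 7.00% and 6.30% of all genes tested. It was Alas2, which encodes the first enzyme of heme synthesis in red cells. Its RPKM was 38.7, 44.7 and 56.9 in HFD and 73.0, 79.6 and 77.2 in LYC, with a log2 fold change of 1.01 (adjusted p = 0.0378 in limma). That is just past the limit, and the call was lost without HFD1, HFD2, LYC1 or LYC3, with total reads (0.72) and with a pseudocount of 5 (0.94). The call of Cps1, at 1.08, was lost without any 1 library but LYC3, with total reads (0.78) and without a filter on low genes. The adjusted p of Cps1 in limma was 0.0546, not below 0.05. The part of the erythroid markers in the results was not tested.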

How the data were processed

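Livers of 3 HFD and 3 LYC mice were compared. The deposited Ribo-seq table holds RPKM values, and the deposited table of the samples labelled RNA-seq holds counts of reads beside RPKM. Per the labels and the methods, reads were cleaned with cutadapt and Bowtie2, aligned to GRCm38/mm10 with STAR and quantified with FANSE2. Versions, annotation and filters are not given in the sources used here. Columns of the second table were given to samples by the diet and replicate number in their names. The study describes the replicates as biological, but the labels mention pooled material, and if replicates are technical in part p-values measure only the spread between these libraries.

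Reads were recovered from the steps of the RPKM values. With the gene length of the other table, 71.9% to 72.4% of values above 0 in a library were whole within 0.02 reads. Of 15749 genes above 0, 11129 had that length whole in all libraries and a length was fitted for 4620. Of 25033 entries, 4 that shared a name were left out. Since the unit is RPKM, the main test was limma (trend, two-sided) on log2(RPKM / TMM factor + 1), which understates the change of low genes. TMM factors and the filterByExpr filter used the recovered reads. For the deposited counts the test was edgeR's quasi-likelihood test. Calls were made at a log2 fold change beyond 1 in either direction and an unadjusted p below 0.01. Each test was run on simulated data first.

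The members and lists were chosen with earlier results of these data known. Named genes are the 6 enzymes, called genes of each list (up to 6), the largest change in a list with no call, and the 5 profiles nearest to Upp2. Cell type markers are named by their sums and where they are at 0. Lars2, Arntl, Tk1, Tk2, Cps1 and Alas2 were named after their values were seen. Promoters are from RefSeq (GRCm38.p6), where 5 of the 6 enzymes matched, and positions from GENCODE M21. Alternatives were other scalings, pseudocounts, filters, thresholds, tools, a length trend, a replicate block and leaving out each library. Tests ran in limma 3.58.1, edgeR 4.0.16 and DESeq2 1.42.0 under R 4.3.3. Python 3.11.15 with pandas 2.3.3 and numpy 2.4.6 handled the tables, scipy 1.17.1 the intervals, and matplotlib 3.10.9 the figures.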

Additional observations from a re-analysis of the deposited data

How the results depend on the processing

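Upp2, whose difference chose the set, is given without a test, and its log2 fold change in Ribo-seq was 3.67 with total library size and 3.68 with a pseudocount of 5. With total library size 235 genes were called higher and 651 lower, 0 pathway genes were called higher, Dpyd was at 0.76 and no longer called, and Upb1 turned to -0.0089. With a pseudocount of 5, 222 genes were called lower and 1 pathway gene lower, and 2 of the 5 profiles nearest to Upp2 were shared. Without a filter 710 genes were called lower. At an unadjusted p below 0.001, 196 genes were called higher and 101 lower, 1 pathway gene higher and 0 lower, and Dpyd at 1.05 was not called. Leaving out each library gave 268 to 574 genes higher, 143 to 707 lower, 2 to 4 pathway genes higher, 0 to 3 lower, Dpyd at 0.96 to 1.18 and Dpys at 0.69 to 1.01.

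In the table labelled RNA-seq, total counts gave 134 genes higher and 2760 lower, with Dpyd at -0.040, Dpys at -0.16 and Upb1 at -0.79. Total counts without Lars2 gave 221 higher and 1302 lower, Dpyd at 0.49 and Upb1 at -0.27. Without a filter 988 were lower and Dpyd was at 0.88, and at an unadjusted p below 0.001, 362 were higher and 167 lower. Leaving out each column gave Dpyd at 0.99 to 1.21 and Dpys at 0.69 to 1.05. The cause of these moves was not tested.

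Same-numbered Ribo-seq libraries of the diets deviated together little (r = 0.108, 0.0262 and 0.0073 across genes). Other pairs gave r from -0.0998 to 0.0650. These values cannot exclude a pairing, and the main fit used none. With the replicate block 397 genes were called higher and 340 lower, Upp2 stayed at 3.96, the calls of Clock and Per2 were lost and no call of the 6 enzymes changed. In the second table, whose HFD columns follow Ribo-seq libraries of other numbers, r of same-numbered columns was -0.0949, 0.00165 and -0.0431. The block there gave 486 genes higher, 373 lower and Upp2 at 4.02. Depth limits Upp1 and Cda most, which rest on 2 reads each in LYC.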
